A study of Mus musculus with 6 samples.

Results

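The Polycomb repressor genes described here are 10 genes taken by name, Ezh1, Ezh2, Eed, Suz12, Bmi1, Cbx2, Cbx7, Cbx8, Ring1 and Rnf2, and all 10 were found among the 21485 gene identifiers shared by the count matrices of 6 samples. The samples are cultured muscle-derived stem/progenitor cells (MDSPCs) from mice, 3 populations labelled young and 3 labelled old, and the labels call the 3 populations of each group biological replicates. MDSPCs are the slowly adhering cells left after serial preplating of enzymatically dissociated skeletal muscle. All 6 populations were grown on collagen type I in proliferation medium with fetal bovine serum, horse serum and chick embryo extract, so both groups are cultured cells and not fresh tissue. No treatment separates the groups, and the age in months, strain and sex of the mice and the passage number are not given in the sources used here. Each library was made with the 10x Genomics 3′ v3.1 kit, which counts unique molecular identifiers (UMIs) near the 3′ end of transcripts, and each sample is 1 library.

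Polycomb proteins keep genes silent through chromatin. Polycomb repressive complex 2 (PRC2) methylates lysine 27 of histone H3 through its catalytic subunit Ezh2 or Ezh1, and needs the core subunits Eed and Suz12. Polycomb repressive complex 1 (PRC1) ubiquitinates histone H2A through Rnf2 (Ring1B) or Ring1 (Ring1A), and in its canonical form holds a Pcgf protein such as Bmi1 and a Cbx protein, among them Cbx2, Cbx7 and Cbx8, that reads the PRC2 mark. The best known target in senescence is the Cdkn2a locus, which encodes p16Ink4a and p19Arf and is silenced by Polycomb in dividing young cells. In muscle progenitors Ezh2 is known from proliferating cells and falls as they differentiate, while Ezh1 is known from differentiated and resting cells.

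The promoter sequences of Ezh2, Suz12 and Ezh1 are shown as examples of PRC2 genes that moved with the cell cycle, Ezh2 and Suz12 upward and Ezh1 downward. They come from RefSeq on GRCm38.p6 and run 5′ to 3′ on the gene's strand, with capitals for matches to motifs known from cell cycle promoters, whichever strand the match is on. The first stretch lies upstream of the Ezh2 start between its annotated first exons (chr6:47595059-47595183, minus strand), and its capitals are a CCAAT box on each strand. The second is the 30 bases around the Ezh2 start (chr6:47595009-47595038, minus strand), where the later capitals are an E2F octamer and the leading capitals are the end of a further CCAAT match. The third and the fourth are the 250 bases upstream of Suz12 (chr11:79992856-79993105, plus strand) and of Ezh1 (chr11:101226464-101226713, minus strand).
Ezh2 upstream: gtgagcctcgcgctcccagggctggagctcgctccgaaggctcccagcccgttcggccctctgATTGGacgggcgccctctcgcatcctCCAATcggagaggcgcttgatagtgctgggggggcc
Ezh2 start: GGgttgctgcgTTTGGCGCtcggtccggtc
Suz12 upstream: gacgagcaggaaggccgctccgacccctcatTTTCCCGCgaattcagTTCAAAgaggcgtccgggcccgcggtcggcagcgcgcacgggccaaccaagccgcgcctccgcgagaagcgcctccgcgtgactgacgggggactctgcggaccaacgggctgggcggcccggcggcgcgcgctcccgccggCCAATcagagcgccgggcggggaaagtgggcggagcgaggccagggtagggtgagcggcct
Ezh1 upstream: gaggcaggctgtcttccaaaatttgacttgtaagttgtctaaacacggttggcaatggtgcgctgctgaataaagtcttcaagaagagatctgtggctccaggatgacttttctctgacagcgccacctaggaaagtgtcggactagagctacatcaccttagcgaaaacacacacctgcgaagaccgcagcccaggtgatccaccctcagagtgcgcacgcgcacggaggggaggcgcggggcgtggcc
The capitals in the Suz12 stretch are, in order, an E2F octamer, a cell cycle genes homology region (CHR) on the minus strand and a CCAAT box, and the Ezh1 stretch holds no match.

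The motifs were searched on both strands from 250 bases before to 50 bases after each start, where a promoter was listed for 9 of the 10 genes and not for Cbx2. The E2F octamers searched (TTTCCCGC, TTTCGCGC, TTTGCCGC and TTTGGCGC) occurred in 2.26% of 32851 promoters and, among the 9, in those of Ezh2 and Suz12. They did not occur in that of Eed, which also rose in S and G2/M cells and is not printed above. The CHR element TTTGAA occurred in 17.9% of promoters and in those of Eed, Suz12 and Cbx7. CCAAT occurred in 37.4% of promoters and in those of Ezh2, Eed, Suz12, Cbx7 and Cbx8. Ezh1, Bmi1, Ring1 and Rnf2 held none of the 3. These matches describe letters and not bound sites.

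The matrices held 8912 to 12808 barcodes and 133974782 to 196481316 UMIs per sample, and 61673 of 62849 barcodes passed the filters on cells, with a median of 13001 to 19951 UMIs per kept cell. Any pair of samples shared 23 to 35 barcodes, at most 0.369% of the smaller sample. The matrices of young 1 and old 1 used a shorter feature list than the other 4. Of the markers of the labelled cell type, 9 or 10 of 12 muscle progenitor and muscle genes reached 1 CPM (counts scaled to library size) in each sample, with summed levels of 159 to 4855 CPM. Immune markers summed to 1.57 to 7.75 CPM and endothelial markers to 1.84 to 62.8 CPM, the highest in young 2 with Tek leading and at most 2 of 7 markers at 1 CPM or more, while fibro-adipogenic markers summed to 283 to 511 CPM with Gsn leading in all 6. The fibro-adipogenic sum was above the muscle sum in young 3 (326 against 179 CPM) and old 1 (345 against 159 CPM), so the muscle markers did not lead in every population. Tenocyte markers summed to 125 to 304 CPM, nearly all Scx, and were also above the muscle sum in young 3 (213 CPM). Glial markers summed to 82.4 to 494 CPM, nearly all Ncam1, which muscle cells also express, and smooth muscle markers to 14.7 to 96.7 CPM. The part of these other markers in the results below was not tested.

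Old and young populations did not differ detectably in any of the 10 Polycomb genes. Their levels in the 2 groups overlapped for 9 of the 10, and only Cbx7 had every old sample above every young one. Of all genes, 3.63% had old samples all higher and 2.42% had them all lower. Counts were summed over the kept cells of each sample and tested with edgeR's quasi-likelihood test, with a term for the feature list. Of the 10 genes, 0 passed an adjusted p of 0.05, beside 1 of 14512 genes tested, a share of 0.00689%. At an unadjusted p under 0.05 the counts were 0 of the 10 and 512 of all genes, and DESeq2 called 219 genes (1.51%) and 0 of the 10. The median log2 change was 0.12 over the 10 and -0.01 over all genes. Changes were simulated over the 14512 genes with the biological coefficient of variation of 0.563 found here, the same for every gene. Of these, 0% of 2-fold and 0% of 4-fold changes were recovered. The SEs of the 10 genes ran from 0.22 for Suz12 to 0.51 for Cbx7, so a shared value does not describe each gene. The simulation therefore cannot say which change in a given Polycomb gene would have been called. A missing call does not show that a gene was unchanged. Nothing in the labels says that the populations came from separate mice, so the p-values measure the spread between these populations. In counts summed over a sample, fewer cells expressing a gene and less RNA per cell cannot be told apart.

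**Figure D1:**
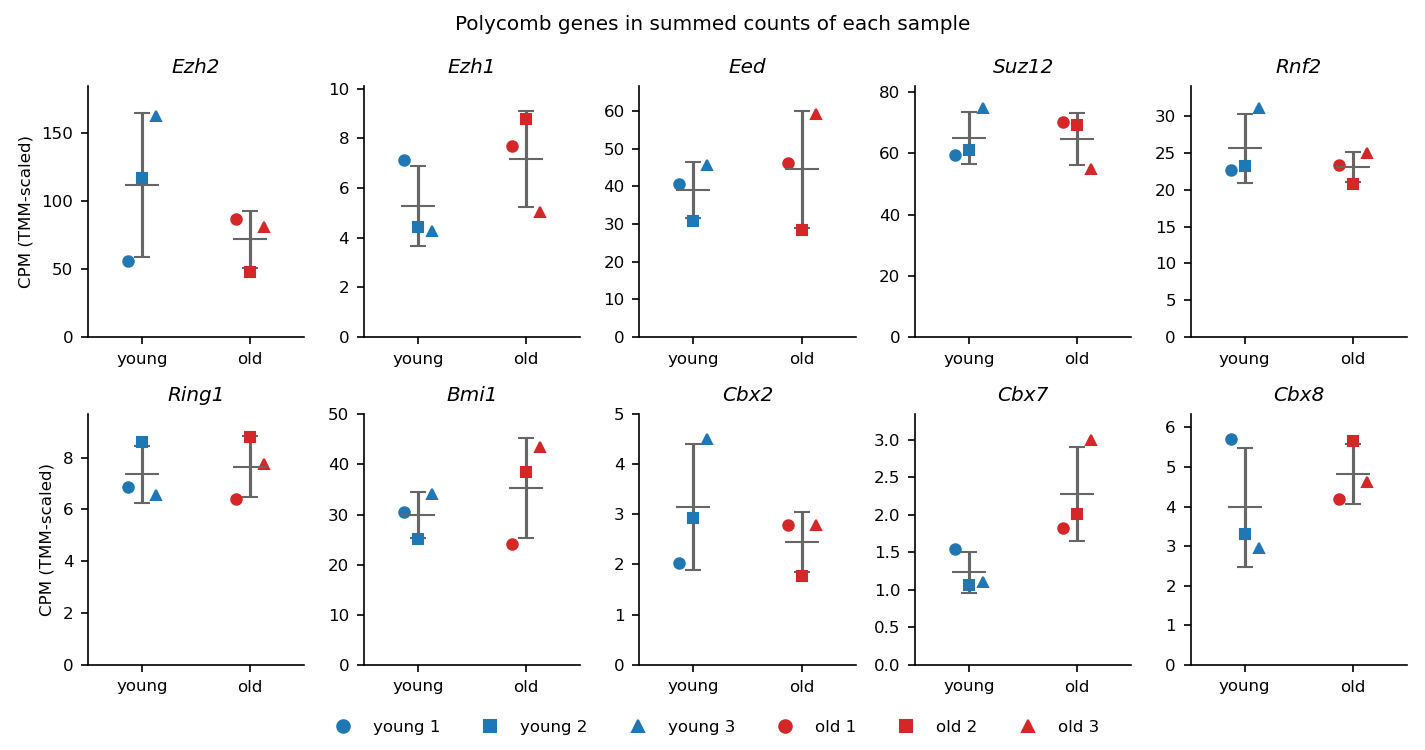
Level of each Polycomb gene (y axis, TMM-scaled CPM of counts summed over the kept cells of a sample) in the 3 young and 3 old samples (x axis), with the group mean and SD in grey. Ezh2 ranged from 48.0 to 162 CPM with overlapping groups, and Cbx7 is the only one of the 10 whose old samples all lay above the young ones.

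Ezh2, on chromosome 6 at 47530139-47595341 (GRCm38, minus strand), is the main histone methyltransferase of PRC2 in dividing cells. Its TMM-scaled level was 56.3, 117 and 162 CPM in young 1, 2 and 3 and 87.1, 48.0 and 81.0 CPM in old 1, 2 and 3. Young 2 and young 3 stood above every old sample, and young 1 was below 2 of the 3 old samples. The group means were 112 ± 53.2 CPM in young and 72.0 ± 21 CPM in old (SD, n = 3 each), a log2 change of -0.55 with an SE of 0.46 (adjusted p = 1.00 by edgeR). The difference went in opposite directions within the feature lists, -1.15 on the log2 scale for the 4 samples on the longer list and 0.63 for young 1 and old 1 on the shorter one. In young 3 the median of 307 measured chromosome 6 genes was itself 0.40 above the mean of all samples on the log2 scale, and subtracting each sample's chromosome median moved the mean Ezh2 difference in log2(CPM + 1) from -0.55 to -0.38. The part of that chromosome-wide shift in the Ezh2 level was not tested.

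Ezh1, the alternative PRC2 methyltransferase (chromosome 11, 101191115-101226463, minus strand), was measured at 7.15, 4.44 and 4.29 CPM in young 1 to 3 and at 7.68, 8.78 and 5.03 CPM in old 1 to 3. Old 1 and old 2 were highest, and young 1 lay above old 3. The log2 change was 0.48 with an SE of 0.35 (adjusted p = 1.00 by edgeR), with 0.61 within the longer feature list and 0.10 within the shorter one. The number of Ezh2 UMIs for each Ezh1 UMI, whose absolute size also depends on how well each 3′ end is captured, was 7.88, 26.4 and 37.8 in young 1 to 3 and 11.3, 5.46 and 16.1 in old 1 to 3. The lowest ratio was in old 2 and the highest in young 3.

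The other 2 core subunits varied less than Ezh2, with the highest sample 2.09-fold above the lowest for Eed and 1.36-fold for Suz12, against 3.39-fold. Eed, the PRC2 subunit that binds the methyl mark (chromosome 7, 89954654-89980983, minus strand), was at 40.6, 30.9 and 45.6 CPM in young and 46.3, 28.3 and 59.2 CPM in old, so the old samples held both the lowest and the highest level. Suz12, the scaffold of PRC2 (chromosome 11, 79993106-80034123, plus strand), was at 59.3, 61.1 and 74.9 CPM in young and 70.1, 69.2 and 55.0 CPM in old. Their log2 changes were 0.19 (SE 0.34) and -0.01 (SE 0.22). The direction of Suz12 turned in G1, S and G2/M cells taken alone, with values of 0.06, 0.05 and 0.10. Ezh1, Suz12, Cbx2 and Cbx8 all lie on chromosome 11, where the median of 533 genes in old 2 was 0.34 above the mean of all samples on the log2 scale. Subtracting each sample's chromosome median moved the old-minus-young difference in log2(CPM + 1) from -0.01 to -0.15 for Suz12 and from 0.38 to 0.23 for Ezh1. It moved from -0.24 to -0.38 for Cbx2 and from 0.25 to 0.11 for Cbx8.

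Among PRC1 genes the catalytic pair had the smallest range over the samples. Rnf2 (chromosome 1, 151458004-151500955, minus strand) was at 22.6, 23.2 and 31.0 CPM in young and 23.4, 20.8 and 24.9 CPM in old. Ring1 (chromosome 17, 34020792-34024680, minus strand) was at 6.86, 8.60 and 6.57 CPM in young and 6.41, 8.78 and 7.76 CPM in old. The highest sample exceeded the lowest 1.49-fold for Rnf2 and 1.37-fold for Ring1. Rnf2 overlaps the 3′ end of Trmt1l on the opposite strand by 158 bases, and strand use in counting is not given in the sources used here, so reads in that stretch cannot be assigned from the counts.

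Bmi1, the Pcgf subunit whose loss is known to release Cdkn2a (chromosome 2, 18677018-18686629, plus strand), was at 30.4, 25.1 and 34.2 CPM in young and 24.2, 38.4 and 43.5 CPM in old. Old 1 was the lowest of all samples and old 2 and old 3 the highest. The log2 change was 0.20 (SE 0.27), with 0.48 within the longer feature list and -0.33 within the shorter one. Commd3, which ends just upstream of Bmi1 on the same strand (18672384-18676231), had the same order in the old samples, 254, 749 and 791 CPM, against 336 to 362 CPM in young. It was looked at after the Bmi1 values were seen, and reads from transcripts joining both genes cannot be told apart here.

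The 3 Cbx genes were detected at low levels. Cbx7, the Cbx subunit best known for holding Cdkn2a silent (chromosome 15, 79915807-79971119, minus strand), was at 1.55, 1.06 and 1.10 CPM in young, from 175 to 225 UMIs, and at 1.82, 2.01 and 3.00 CPM in old, from 306 to 517 UMIs. Its groups did not overlap, and the log2 change was 0.89 with an SE of 0.51 (adjusted p = 1.00 by edgeR). The change was 1.21 without young 1 and 0.62 without old 3. Within the feature lists the log2 difference was 1.19 for the samples on the longer list and 0.24 for young 1 and old 1 on the shorter one. Cbx7 overlaps the 3′ end of Apobec3 on the opposite strand by 100 bases, and Apobec3 was at 13.8 to 14.7 CPM in the old samples against 0.03, 3.76 and 0.13 CPM in young 1 to 3. The part of Apobec3 reads in the Cbx7 counts was not tested. Cbx2 (chromosome 11, 119022962-119031270, plus strand) was at 2.02, 2.93 and 4.49 CPM in young and 2.78, 1.76 and 2.80 CPM in old. Its neighbour Cbx8 (chromosome 11, 119036305-119040969, minus strand) was at 5.71, 3.30 and 2.95 CPM in young and 4.18, 5.65 and 4.61 CPM in old. Their log2 changes were -0.32 (SE 0.51) and 0.33 (SE 0.41).

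Between G1 and S cells of the same samples 7 of the 10 genes changed, 5 upward and 2 downward, beside 24.2% of 12374 genes that rose and 30.8% that fell. In S cells Ezh2 was 4.21-fold, Cbx2 3.35-fold, Eed 1.86-fold and Suz12 1.80-fold higher than in G1 cells, each higher in 6 of 6 samples, as were 19.9% of all genes. Ezh1 was 1.49-fold lower. Bmi1 rose and Ring1 fell by less, and Rnf2, Cbx7 and Cbx8 did not pass the test in S, though Rnf2 did in G2/M. Each kept cell was thinned to 5000 UMIs, phases were called from 43 S and 54 G2/M genes that hold none of the 10, and counts were summed per sample and phase and compared within samples. G1 here means that neither score was positive, so it includes cells outside the cycle.

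**Figure D2:**
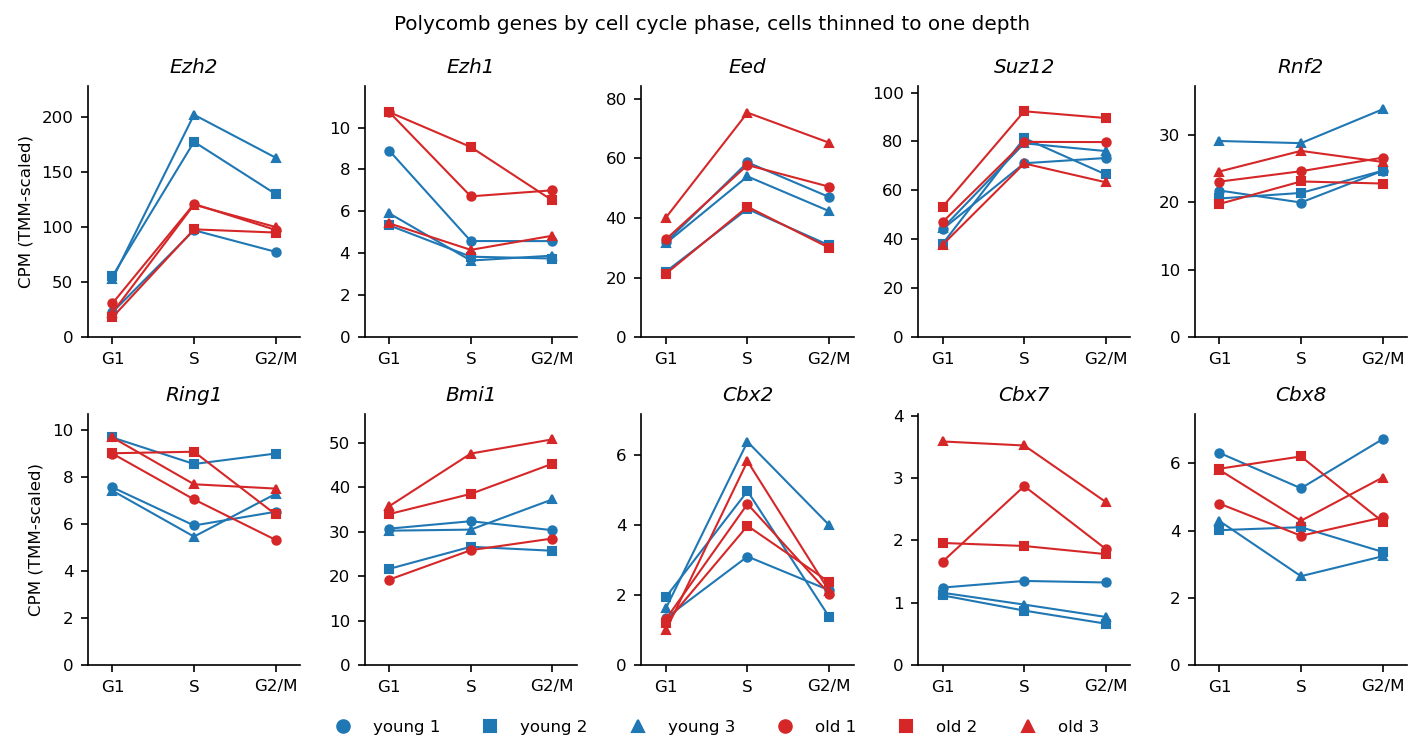
Level of each Polycomb gene (y axis, TMM-scaled CPM) in cells called G1, S and G2/M (x axis), with a line for each of the 6 samples (blue young, red old). Every line for Ezh2, Eed and Suz12 rises from G1 to S and every line for Ezh1 falls, while those for Cbx7 and Cbx8 cross.

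From G1 to G2/M, 6 rose and 2 fell, beside 23.7% and 30.4% of genes. The median log2 change over the 10 was 0.16 for S and 0.27 for G2/M, against -0.05 for all genes in each comparison. In simulations of this S design over 12374 genes, with the same coefficient of variation for every gene, 95% of 2-fold changes were recovered.

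Ezh2 in G1, S and G2/M cells was at 22.7, 97.3 and 77.6 CPM in young 1, at 55.5, 178 and 130.2 CPM in young 2 and at 53.0, 202 and 163 CPM in young 3. The corresponding levels were 30.7, 121 and 97.5 CPM in old 1, 18.1, 98.1 and 95.1 CPM in old 2 and 22.2, 121 and 100.2 CPM in old 3. S cells were highest and G1 cells lowest in all 6, and no G1 value reached the lowest S or G2/M value. The log2 change was 2.07 in S (SE 0.12, adjusted p = 1.56e-08 by edgeR) and 1.79 in G2/M (SE 0.12, adjusted p = 6.28e-08), the latter a 3.46-fold difference. In G2/M cells Ezh2, Eed, Suz12 and Rnf2 were each higher in 6 of 6 samples, as were 19.4% of all genes. Young 2 and young 3 stayed above the other 4 samples in each of the phases.

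Ezh1 went the other way. In G1 cells it was at 8.90, 5.34 and 5.91 CPM in young and 10.7, 10.7 and 5.43 CPM in old, and in S cells at 4.59, 3.84 and 3.66 CPM in young and 6.72, 9.07 and 4.16 CPM in old. It was lower in S than in G1 in 6 of 6 samples, as were 24.3% of all genes, with log2 changes of -0.57 in S (SE 0.11, adjusted p = 0.000203 by edgeR) and -0.57 in G2/M (SE 0.10, adjusted p = 0.000129). Ezh2 UMIs for each Ezh1 UMI therefore went from 2.55, 10.4 and 8.96 in G1 to 21.2, 46.3 and 55.3 in S in young, and from 2.86, 1.68 and 4.10 to 18, 10.8 and 28.9 in old.

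The shared core rose with Ezh2 but by less. Eed was at 21.3 to 40.1 CPM in G1 cells and 43.0 to 75.4 CPM in S cells over the 6 samples, a log2 change of 0.89 (SE 0.05, adjusted p = 4.71e-11 by edgeR), and at 30.0 to 65.3 CPM in G2/M, a change of 0.56 (SE 0.05). Suz12 was at 37.8 to 53.3 CPM in G1, 71.0 to 92.3 CPM in S and 63.3 to 89.6 CPM in G2/M, with changes of 0.85 (SE 0.05, adjusted p = 3.47e-11) and 0.76 (SE 0.05). The S and G1 ranges of Suz12 did not overlap across samples, and those of Eed did not either.

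Cbx2 had the largest S change among the PRC1 members, with 0.99 to 1.94 CPM in G1 cells (14 to 47 UMIs) and 3.1 to 6.39 CPM in S cells (23 to 145 UMIs). Its log2 change was 1.74 in S (SE 0.20, adjusted p = 5.03e-07 by edgeR) and 0.66 in G2/M (SE 0.21, adjusted p = 0.0126). The G2/M call was lost without young 3 (0.49, adjusted p = 0.0909) and in the young samples alone (0.44, adjusted p = 0.281). Bmi1 rose modestly, by 0.23 in S (SE 0.07, adjusted p = 0.00761) and 0.34 in G2/M (SE 0.07, adjusted p = 0.00025), and its S call was lost without old 3 (0.18, adjusted p = 0.0645). In the young samples alone Bmi1 had 0.10 in S (adjusted p = 0.433) and 0.17 in G2/M (adjusted p = 0.186).

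Of the catalytic pair, Rnf2 changed by 0.07 in S (SE 0.06, adjusted p = 0.313 by edgeR) and rose by 0.19 in G2/M (SE 0.06, adjusted p = 0.00625). The G2/M call of Rnf2 was lost in the young samples alone (0.20, adjusted p = 0.0756) and in the old alone (0.17, adjusted p = 0.123). Ring1 fell by 0.28 in S (SE 0.11, adjusted p = 0.0333) and by 0.30 in G2/M (SE 0.10, adjusted p = 0.0185). The S call of Ring1 was lost without young 1, young 3 or old 3 (adjusted p = 0.0517, 0.0646 and 0.0702) and without cells of over 2 times the median UMIs (0.0511), and its G2/M call without old 1 or old 3 (0.0972 and 0.0515). In the young samples alone the G2/M value of Ring1 was -0.12 (adjusted p = 0.508). Cbx8 had log2 values of -0.27 in S (SE 0.12, adjusted p = 0.0711) and -0.16 in G2/M (adjusted p = 0.267), and its S value passed without old 2 (-0.32, adjusted p = 0.0397) and without thinning (-0.30, adjusted p = 0.0087), as did its G2/M value without thinning (-0.22, adjusted p = 0.0380). Cbx7 had 0.10 in S (SE 0.17) and -0.30 in G2/M (SE 0.17, adjusted p = 0.145), and the difference between the Cbx genes was not tested.

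**Figure D3:**
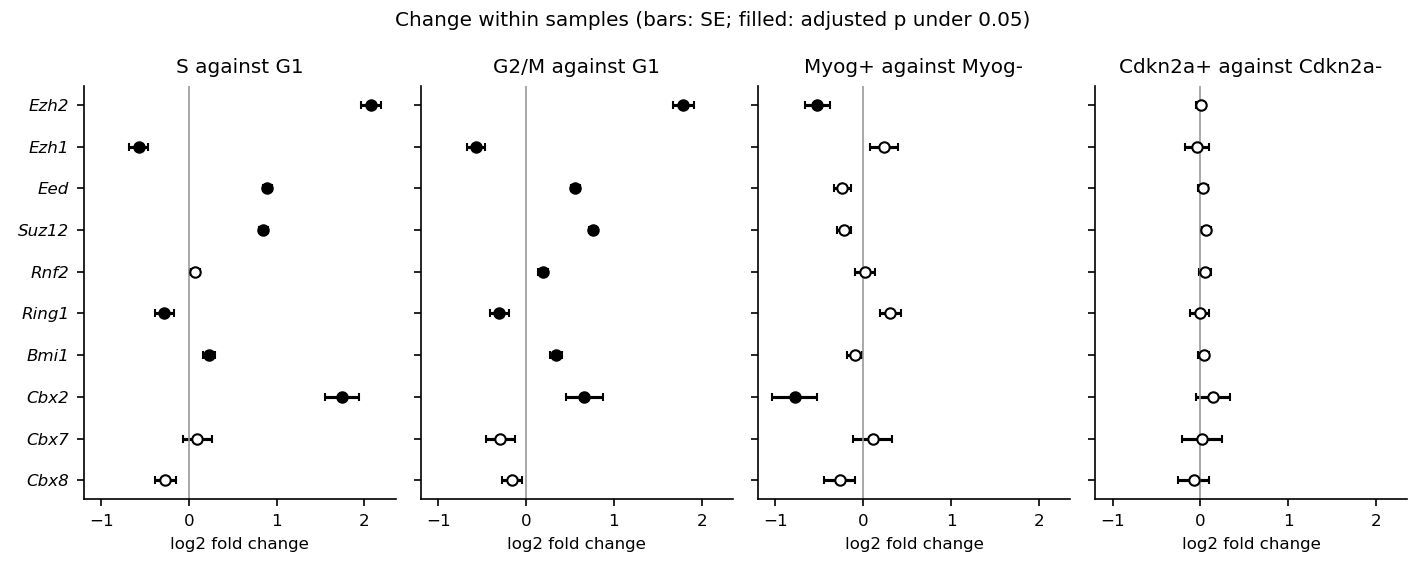
Log2 fold change (x axis) of each Polycomb gene (y axis) within the 6 samples for S and G2/M cells against G1 cells, Myog UMI-positive against negative cells and Cdkn2a UMI-positive against negative cells, with the SE as bars and filled points for an adjusted p under 0.05. Ezh2 stands at 2.07 and 1.79 in the phase panels and at -0.52 in the Myog panel, while all 10 genes lie within 0.15 of 0 in the Cdkn2a panel.

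The rise of Ezh2 from G1 to S and G2/M was not shown to differ between old and young. Its difference, old minus young, was 0.41 in S (SE 0.17, adjusted p = 1.00 by edgeR) and 0.56 in G2/M (SE 0.17, adjusted p = 0.955). No gene passed these tests in either phase, beside 497 and 608 of 12374 genes at an unadjusted p under 0.05. Ezh2 was among these genes in each phase, and Bmi1 and Ring1 in G2/M, with differences of 0.30 and -0.42.

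Accessory subunits also went in both directions. Of 10 further PRC2 genes 9 were tested, and 6 rose and 2 fell in each phase, beside 24.2% and 30.8% of all genes in S and 23.7% and 30.4% in G2/M. Phf19, an accessory subunit that guides PRC2 to chromatin, rose by 2.01 in S (SE 0.24) and 2.59 in G2/M (SE 0.22) on the log2 scale. Epop, an accessory subunit of the same class of PRC2, rose by 1.18 and 0.83, Mtf2 by 0.43 and 0.33, and the histone-binding Rbbp7 by 0.39 and 0.30. Aebp2, a partner of Jarid2, rose by 0.17 and 0.37. Jarid2, which marks the other class of PRC2, fell by 1.03 and 0.29, and Phf1 fell by 0.70 and 0.88. Ezhip had no count in these samples and was not tested.

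Of 25 further PRC1 genes 12 rose and 4 fell in S, and 11 rose and 3 fell in G2/M, to be read beside the same shares of all genes. L3mbtl2, part of a variant PRC1, rose by 0.67 in S and 1.12 in G2/M. Cbx6 rose by 0.63 and 0.40, Pcgf5 by 0.57 and 0.19, and Kdm2b, which brings variant PRC1 to CpG islands, by 0.57 in S. Scml2 rose by 0.97 and Bcor by 0.25 in G2/M. Phc3, Pcgf3, Mga and Dcaf7 fell in S, by 0.36, 0.28, 0.25 and 0.14. In G2/M Phc3, Mga and Pcgf3 fell by 0.21, 0.18 and 0.12. Among 12 opposing enzymes 11 were tested, and 0 rose and 3 fell in S, while 3 rose and 4 fell in G2/M. The 3 falls in S and the 3 rises in G2/M are near the shares of all genes, 30.8% and 23.7%. Kdm6b, the demethylase that removes the PRC2 mark, fell by 1.13 in S and 0.49 in G2/M, and the Trithorax-related methyltransferase Kmt2d fell by 0.52 and 0.23, and its relative Kmt2c by 0.26 and 0.37. Asxl2 fell by 0.21 in G2/M. Asxl1, a cofactor of H2A deubiquitination, rose by 0.39 in G2/M, and the Trithorax methyltransferases Kmt2a and Kmt2b rose by 0.30 and 0.23.

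Across the 6 samples no relation between a Polycomb gene and the share of cells called S or G2/M passed the adjustment, and r was positive for 5 of the 10 genes and negative for 5. Cells in S or G2/M made up 47.1%, 55.2% and 85.2% of young 1, 2 and 3 and 78.4%, 32.7% and 61.5% of old 1, 2 and 3. This share rests on phase scores, and Mki67, a proliferation marker that is among the G2/M genes scored, did not follow it closely, at 67.5, 65.1 and 75.3 CPM in young 1, 2 and 3 and 98.3, 38.7 and 51.9 CPM in old 1, 2 and 3. The mean share was 62.5% ± 20.1 in young and 57.6% ± 23.1 in old (SD, n = 3 each), an old-minus-young difference of -4.95 percentage points (exact two-sided permutation test, p = 0.80, smallest possible 0.10). The difference turned to 6.41 points without young 3 and to 7.49 points without old 2. Pearson's r with log2(CPM + 1) was 0.88 for Cbx2 (rho 0.77, exact permutation p = 0.0250), 0.82 for Ezh2 (rho 0.83, p = 0.0514) and 0.81 for Rnf2 (rho 0.94, p = 0.0333), and -0.74 for Cbx8 and for Ring1. None of 20 such relations passed after Benjamini-Hochberg adjustment (0.222, 0.257 and 0.222 for Cbx2, Ezh2 and Rnf2). Without young 3 and old 2, the samples farthest from the median share, r was 0.58, 0.35 and 0.33, so on this TMM scale the relations rest on those 2 samples. Without the same 2 samples, r on unscaled CPM was 0.76 for Cbx2, 0.53 for Ezh2 and 0.91 for Rnf2. In G1 cells alone, also unscaled, it was 0.01, 0.18 and 0.98. The low Rnf2 value was thus seen on the TMM scale only. The feature lists hold 2 and 4 samples, under the 6 samples used here for any tested correlation, and values of r over 4 samples are descriptions with no test.

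Cdkn2a varied widely between the populations, and none of the 10 genes had a relation to it across samples that passed the adjustment. Its TMM-scaled level was 14.5, 12.7 and 6.74 CPM in young 1, 2 and 3 and 96.5, 31.1 and 529 CPM in old 1, 2 and 3, so all old samples lay above all young ones. The counts do not separate p16Ink4a from p19Arf. The log2 change was 4.17 with an SE of 1.19 (adjusted p = 1.00 by edgeR). Cdkn2b, the neighbouring inhibitor, went the other way, with 46.5 to 113 CPM in young and 12.2 to 27.8 CPM in old, a log2 change of -1.97 (SE 0.25, adjusted p = 0.347) with no overlap. Mtap, the next gene, was at 112 to 278 CPM in young and 195, 56.7 and 45.1 CPM in old.

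Over the 6 samples r of log2 Cdkn2a with Ezh2 was -0.28 (rho -0.54, exact permutation p = 0.586), with Bmi1 0.39 (rho 0.26, p = 0.451) and with Cbx7 0.92 (rho 0.89, p = 0.00972). The adjusted value for Cbx7 over the 20 relations was 0.194. Without old 1 and old 3, which leaves old 2 as the only old sample, r was 0.88. With Cbx7 from G1 cells and Cdkn2a from whole samples, r was 0.90 and rho 0.71 (exact permutation p of rho = 0.136). On unscaled CPM r was 0.93 and rho 0.77 (exact permutation p of rho = 0.103). Both Cbx7 and Cdkn2a had every old sample above every young one, so their relation cannot be told apart from old against young. On the TMM scale the highest sample within each group was the same for both genes, young 1 and old 3. The order of the other samples differed, and old 1 had more Cdkn2a but less Cbx7 than old 2. The other 7 genes had r between -0.50 and 0.59, none below an unadjusted p of 0.05. Leaving out old 1 and old 3, the samples farthest from the median Cdkn2a level, moved several of them over the remaining 4 samples. Ezh2 then had r = -0.89, Cbx2 and Rnf2 -0.91, Ezh1 0.88, and Eed turned from 0.59 to -0.82, so these values depend on those 2 samples. In the remaining 4 samples Cdkn2a rose in the order young 3, young 2, young 1 and old 2. The share of cells called S or G2/M fell in that same order, so relations to Cdkn2a and to the share cannot be told apart there. Over all 6 samples Cdkn2a itself had an r of 0.02 with that share (exact permutation p = 0.988).

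**Figure D4:**
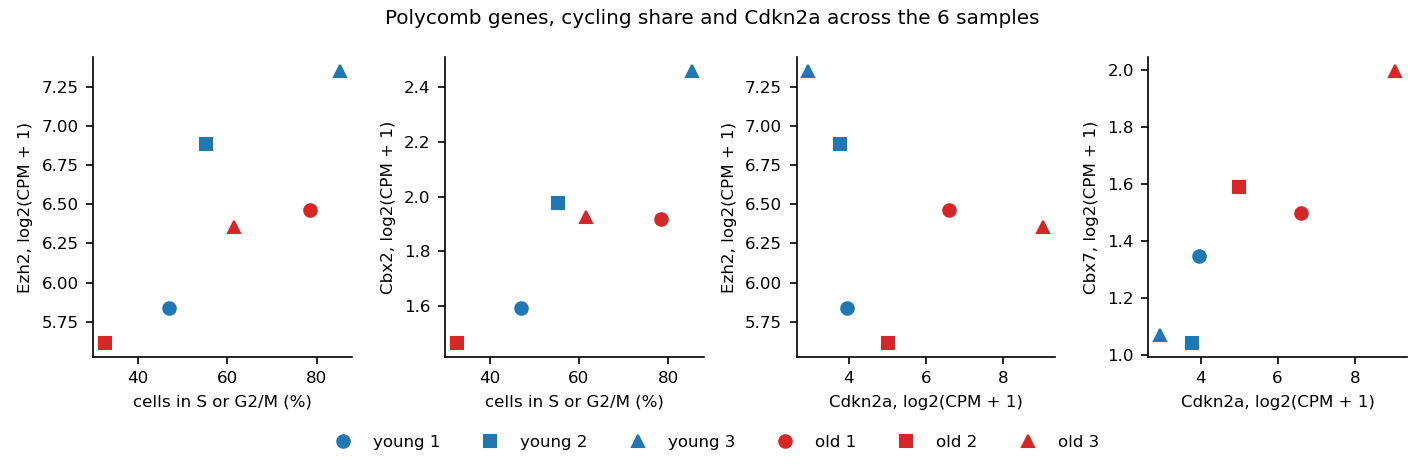
Levels of Ezh2 and Cbx2 against the share of cells in S or G2/M, and of Ezh2 and Cbx7 against Cdkn2a, each as log2(CPM + 1), with 1 point for each of the 6 samples (blue young, red old). Ezh2 and Cbx2 are highest in young 3 and lowest in old 2, the samples with the largest and smallest share, and Cbx7 is highest in old 3, the sample with 529 CPM of Cdkn2a.

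Cell by cell, no difference in the Polycomb genes was detected between cells with and without a Cdkn2a UMI. After thinning, 6.10%, 6.42% and 3.72% of young 1, 2 and 3 and 30.9%, 12.2% and 89.0% of old 1, 2 and 3 had at least 1 Cdkn2a UMI, and without thinning 11.6% to 19.1% of young and 30.7% to 98.1% of old. A cell without a UMI can still express the gene, and no cell class that should lack Cdkn2a was at hand to measure free RNA. Of the 10 genes 0 rose and 0 fell, beside 0.106% of 12252 genes higher and 1.18% lower, 1.28% in all. None of the 10 was higher in 6 of 6 samples or lower in 6 of 6, beside 2.80% and 5.58% of all genes. An unadjusted p under 0.05 was reached by 0 of the 10 and 1572 of all genes, and DESeq2 called 0 of the 10.

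Ezh2 in cells without and with a Cdkn2a UMI was at 53.9 and 49.3 CPM in young 1, at 109.7 and 117 CPM in young 2 and at 162 and 158 CPM in young 3. The old samples gave 89.3 and 96.0 CPM in old 1, 45.3 and 41.7 CPM in old 2 and 76.1 and 77.6 CPM in old 3. It was higher in 3 samples and lower in 3, and the log2 difference of 0.004 had a 95% interval from -0.09 to 0.10 (adjusted p = 0.997 by edgeR). The intervals were -0.08 to 0.15 for Eed, -0.06 to 0.19 for Suz12, -0.09 to 0.16 for Bmi1 and -0.09 to 0.19 for Rnf2. They were wider for the thinly counted Cbx7 (-0.44 to 0.48), Cbx2 (-0.23 to 0.53), Cbx8 (-0.41 to 0.26), Ezh1 (-0.31 to 0.24) and Ring1 (-0.23 to 0.21). All these intervals use a normal approximation with an SE derived from the F statistic. For Bmi1 and Rnf2 the unadjusted edgeR p-values, 0.793 and 0.596, were larger than that SE implies, so their intervals may be too narrow. In simulations of this design over 12253 genes, with the same coefficient of variation for every gene, 93% of 2-fold changes were recovered. The difference between old and young in these contrasts passed for 0 genes by edgeR, and for none of the 10 was its unadjusted p under 0.05.

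**Figure D5:**
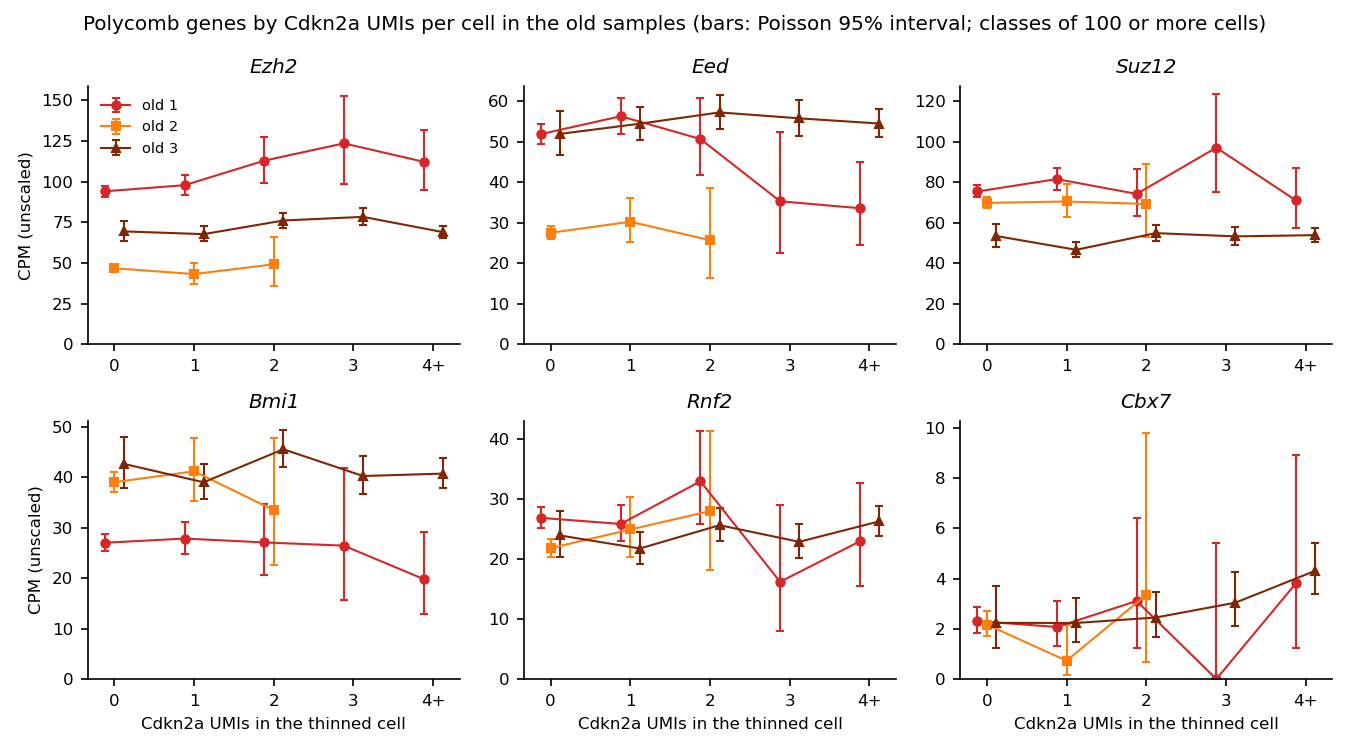
Unscaled CPM (y axis) of 6 Polycomb genes in cells of the 3 old samples grouped by their Cdkn2a UMIs after thinning (x axis), with exact Poisson 95% intervals that cover counting error only and classes of under 100 cells left out. In old 3, Ezh2 is at 69.4 CPM with no Cdkn2a UMI and 69.0 CPM with 4 or more, and Cbx7 at 2.24 and 4.31 CPM.

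Within old 3, the sample with most Cdkn2a, Ezh2 was at 69.4, 67.7, 76.1, 78.3 and 69.0 CPM in cells with 0, 1, 2, 3 and 4 or more Cdkn2a UMIs, from 1340 to 3479 cells a class. Bmi1 was at 42.7, 39.0, 45.6, 40.3 and 40.8 CPM over the same classes. Neither had a steady trend. Cbx7 in old 3 was at 2.24, 2.24, 2.45, 3.04 and 4.31 CPM, and the interval of the last class, 3.39 to 5.40 CPM from 75 UMIs, overlapped that of the first, 1.25 to 3.69 CPM from 15 UMIs. It lay above that of the class with 1 Cdkn2a UMI, 1.49 to 3.23 CPM from 28 UMIs, and the level was higher in each class from there on. In old 1, Cbx7 was at 2.31, 2.07, 3.11, 0 and 3.82 CPM over the classes, from 79, 23, 7, 0 and 5 UMIs, with a Poisson interval of 0 to 5.42 CPM for the count of 0. In old 2 it was at 2.17, 0.73 and 3.35 CPM with 0, 1 and 2 Cdkn2a UMIs, from 81, 3 and 3 UMIs. With so few UMIs in the Cdkn2a-positive classes, old 1 and old 2 cannot show whether the order seen in old 3 held there. Eed in old 1 was at 51.9, 56.3, 50.7, 35.3 and 33.6 CPM over the 5 classes, and the interval of the last, 24.4 to 45.1 CPM from 44 UMIs, lay below that of the first, 49.5 to 54.4 CPM. In old 3 Eed was at 51.9 to 57.2 CPM with no such fall. Ezh2 in old 1 was at 94.1, 97.8, 113, 124 and 112 CPM, with an interval of 90.8 to 97.4 CPM in the first class that overlapped the last, 94.8 to 132 CPM, and lay below those with 2 and 3 Cdkn2a UMIs, 99.4 to 128 and 98.5 to 153 CPM. Each class is a set of cells from 1 library, so no test between classes was made.

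No difference in Cdkn2a between phases was detected within samples. Its log2 values were -0.03 in S (SE 0.08, adjusted p = 0.769 by edgeR) and 0.01 in G2/M (SE 0.08, adjusted p = 0.948). The share of S or G2/M cells among those with and without a Cdkn2a UMI was 48.3% and 47.0% in young 1, 61.8% and 54.8% in young 2 and 83.3% and 85.3% in young 3. It was 79.2% and 78.1% in old 1, 30.7% and 32.9% in old 2 and 61.4% and 63.1% in old 3. It was higher in 3 samples and lower in 3. Cdkn2b in contrast fell by 0.75 in S (adjusted p = 5.25e-05) and Mtap rose by 0.44 (adjusted p = 0.000331). Of 45 other Polycomb and opposing genes tested, Kdm6a, a demethylase of the PRC2 mark, was the only one to differ in Cdkn2a-positive cells, by 0.28 (SE 0.07, adjusted p = 0.0416). It was higher in those cells, as were 0.106% of all genes tested, and this is 1 call of 45. The Kdm6a call was lost without thinning, without young 1, in the old samples alone and in S cells alone. No gene at all was called higher in any of these settings.

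Over all phases together, cells with a Myog UMI had less Ezh2 and Cbx2 than cells without one. Neither difference was called within G1, S or G2/M cells alone. Myog is the transcription factor myogenin, known from the start of muscle differentiation. A Myog UMI can also come from free RNA, whose share was not measured here, so these classes are cells with a UMI and not cells known to differentiate. By sample, 3.49%, 20.7% and 5.38% of young 1, 2 and 3 and 0.646%, 14.6% and 45.6% of old 1, 2 and 3 had a Myog UMI after thinning. Ezh2 in cells without and with a Myog UMI was at 53.8 and 27.9 CPM in young 1, 116 and 79.2 CPM in young 2 and 160 and 166 CPM in young 3. It was at 90.4 and 57.2 CPM in old 1 (20 UMIs in the Myog-positive cells), 47.3 and 22.9 CPM in old 2 and 82.9 and 68.9 CPM in old 3. Ezh2 was lower in 5 of 6 samples, the exception being young 3, and fell by 0.52 on the log2 scale (SE 0.14, adjusted p = 0.0191 by edgeR). Cbx2 was lower in 4 of 6 samples and fell by 0.78 (SE 0.26, adjusted p = 0.0400).

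Of the 10 genes 0 rose and 2 fell, beside 13.4% of 12399 genes that rose and 16.5% that fell, so the falls were at a share near the background. Suz12 had -0.22 (adjusted p = 0.0674), Eed -0.24 (0.0775) and Ring1 0.31 (0.0657), with Suz12 lower and Ring1 higher in 6 of 6 samples, as were 19% and 12.4% of all genes. Eed passed without thinning (-0.28, adjusted p = 0.0238) and without young 3 (-0.30, adjusted p = 0.0388), and Suz12 without thinning (-0.13, adjusted p = 0.0437) and with 2 or more Myog UMIs (-0.35, adjusted p = 0.0434). Ezh1 had 0.23 (SE 0.16, adjusted p = 0.285). The share of S or G2/M cells was lower among Myog-positive cells in all 6 samples, from 8.84% to 75.9% against 36.8% to 85.7% in Myog-negative cells, and in old 3 it was still 51.6% of the Myog-positive cells. Within G1 cells alone the Ezh2 difference was -0.25 (adjusted p = 0.0835), and within S and G2/M cells it was -0.02 and 0.02 (adjusted p = 0.966 and 0.949). The Ezh2 call was also lost without young 1 (-0.46, adjusted p = 0.0538), and that of Cbx2 without young 2, young 3 or old 2 (adjusted p = 0.138, 0.101 and 0.1002), by DESeq2 (0.0613) and without thinning (-0.32, adjusted p = 0.296).

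In the same Myog-positive cells, of 34 other PRC1 and PRC2 genes tested, 0 rose and 6 fell, a share of falls near the 16.5% of all genes. They were Epop by 0.84, Cbx6 by 0.67, L3mbtl2 by 0.50, Phc2 by 0.43, Scmh1 by 0.38 and Aebp2 by 0.28. Kdm6b was the only one of 11 opposing enzymes to change and rose by 0.38 (SE 0.10, adjusted p = 0.0148), beside 13.4% of all genes that rose. Cdkn2a fell by 0.81 (SE 0.15, adjusted p = 0.00379), Cdkn2b by 0.66 and Mtap by 0.94 in the same cells.

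Genes with the most similar pattern were sought over the 18 sums of 6 samples and 3 phases, among 4000 genes with a mean log2 CPM of 5 or more. These sums share libraries and phases, and r is given as a description. For Ezh2 they were Tfdp1, the E2F dimer partner (r = 0.96), Rfwd3 (0.95), the nuclear lamina gene Lmnb1 (0.95), the replication factor Pclaf (0.95) and the splicing factor Srsf2 (0.95). For Ezh1 they included the transcription factor Nfe2l1 (0.88), Gnl3l (0.83), Vps41 (0.82) and Slc35b1 (0.82). For Cbx7 they were the antiproliferative gene Btg2 (0.91), the repair gene Mgmt (0.90), Cdkn2a (0.90), Dnajc1 (0.84) and Ddt (0.83).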

How the data were processed

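Raw UMI counts per gene and cell were deposited as filtered 10x matrices, made with Cell Ranger 7.2.0 per the submitters' processing notes, which also name Seurat 5.134 and mm10. Per the file headers, young 1 and old 1 were made with Cell Ranger 7.0.0. The 21485 Ensembl identifiers in all 6 matrices were kept. Cells needed 1000 UMIs, 500 genes and under 15% of UMIs from 13 mitochondrial genes, and doublets were not removed. For comparisons within samples, cells were thinned to 5000 UMIs and 1368 shallower cells left out. Phases were called with scanpy 1.11.5. Summed counts were tested with edgeR 4.0.16 (TMM, filterByExpr, Benjamini-Hochberg over all genes, called at 0.05), with the sample as a block between cell classes. DESeq2 1.42.0 was an alternative. The age, S and Cdkn2a fits were tested on simulated data. Correlations used all 720 orders of 6 samples. Locations are from GENCODE on GRCm38. Poisson intervals cover counting error only.

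The 10 genes and the other lists were chosen with earlier results of these data known. Named list genes were those with the largest called change, up to 4 a direction, and patterns most like Ezh2, Ezh1 and Cbx7 were the first 5 by Pearson's r, of which 1 for Ezh1 is not reported here. Alternatives were another normalization, filter, depth or phase margin, subsets of samples or cells, and leaving out each sample. Those without high-UMI cells (over 2 times the sample median) were chosen after seeing the data. So were those of the Cdkn2a and Myog classes within S or G2/M cells, while old against young within S or G2/M cells was planned.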

Additional observations from a re-analysis of the deposited data

How the results depend on the processing

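Changes of Ezh2, Eed, Suz12 and Ezh1 with phase kept their direction and side of the threshold under all alternatives run. Over all single-gene values and correlations, 730 comparisons with an alternative were unchanged in direction and call, 30 lost and 7 gained a call, and 72 changed sign. Where direction or a count changed, the cause was not tested.

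Between old and young, DESeq2 called 219 genes, and 0 were called without the gene list term, on the longer list only and in G1 cells. Suz12 was 0.057 in G1, 0.050 in S and 0.097 in G2/M cells, and Ring1 was -0.083 in G2/M cells. Leaving out each sample gave 0 to 3 genes called, and ranges of -0.0096 to 0.465 for Bmi1, -0.163 to 0.441 for Eed, -0.077 to 0.131 for Ring1, -0.247 to 0.0068 for Rnf2 and -0.132 to 0.117 for Suz12. The difference in cycling share ranged from -15.4 to 7.49 points. For samples 1, 2 and 3, r of same-numbered deviations was 0.396, 0.281 and -0.108, against -0.481 to 0.330 for other-numbered samples. A pairing by replicate number was thus not settled. The fit with the replicate block called 1 gene, none of the 10, with Ezh2 at -0.57 and Cbx7 at 0.87.

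In S against G1, 1 member fell without high-UMI cells, in young samples only and in old samples only. Cbx7 was -0.024 without thinning and -0.161 in young samples, and Rnf2 -0.034 in young samples. Leaving out samples gave 1 to 3 members lower and -0.070 to 0.159 for Cbx7. In G2/M against G1, young samples alone called 4418 genes, 3 members higher and 1 lower, leaving out samples gave 1 to 2 members lower, and Cbx8 was 0.077 with strict phase calls.

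For Cdkn2a UMI classes the genes called numbered 403 with no filter on low counts, 0 without thinning, 311, 19 and 19 in G1, S and G2/M cells, 249 without high-UMI cells, 1057 in young and 2 in old samples, and 72 to 312 leaving out samples (99, 72 and 99 without young 1, 2 and 3, 254 and 312 without old 1 and old 3). None of the 10 was called under any of these. Rnf2 kept its sign throughout (0.013 to 0.164), and the other 9 changed sign under some alternative, with Cbx8 ranging widest, from -0.39 to 0.50. Without thinning Ezh1 was 0.082, and with no filter Ezh2 was -0.018. In G1 cells Ezh2 was -0.089. In S cells Bmi1 was -0.0025, Cbx8 0.349 and Ring1 0.018. In G2/M cells Ezh1 was 0.047, Eed -0.023, Bmi1 -0.064, Cbx2 -0.037 and Ring1 0.019. With 2 or more UMIs as positive, Ezh1 was 0.016, Ezh2 -0.035, Eed -0.048, Suz12 -0.116, Bmi1 -0.112, Cbx2 -0.073 and Cbx8 0.496. Without high-UMI cells Cbx7 was -0.043. In young samples Ezh2 was -0.0015 and Ring1 0.135. In old samples Ezh1 was 0.031, Suz12 -0.0056, Bmi1 -0.036, Cbx2 -0.080, Cbx7 -0.049 and Cbx8 0.063. Leaving out samples gave -0.00026 to 0.053 for Bmi1, -0.142 to 0.189 for Cbx7, -0.189 to 0.019 for Cbx8, -0.140 to 0.072 for Ezh1, -0.023 to 0.025 for Ezh2, -0.067 to 0.041 for Ring1 and -0.020 to 0.095 for Suz12.

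For Myog classes the genes called numbered 826 in S, 1074 in G2/M, 414 in young and 1685 in old samples, and 2407 to 3802 leaving out samples, the lowest without old 3 and 2441 without old 2. The members lower were 3 without thinning and with 2 or more UMIs, 1 by DESeq2, 0 in G1, S or G2/M cells, 0 in young and 1 in old samples, and 1 to 2 leaving out samples. In G2/M cells Ezh1 was -0.058, Ezh2 0.023 and Bmi1 0.050, in G1 cells Eed 0.030 and in S cells Suz12 0.017. Rnf2 was -0.011 with no filter, -0.0065 in S cells, -0.089 with 2 or more UMIs and -0.170 in old samples, where Cbx7 was -0.029, and Rnf2 ranged from -0.068 to 0.088 leaving out samples.

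Across samples, r with whole-sample Cdkn2a was -0.074 for Ezh1 in G1 cells and -0.815 for Eed without the 2 farthest samples. With the cycling share it was 0.331 for Ezh1 and 0.310 for Cbx7 without the 2 farthest samples, and 0.035 for Ring1 in G1 cells. Depth limits thinly counted genes such as Cbx2, with 14 to 47 UMIs a sample in G1 cells.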
